A study of Mus musculus with 6 samples.

Results

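The 8 genes described here encode the p53 protein (*Trp53*), its inhibitors (*Mdm2* and *Mdm4*), its target cyclin G1 (*Ccng1*) and the cyclin-dependent kinase (CDK) inhibitors p21 (*Cdkn1a*), p27 (*Cdkn1b*), p18INK4c (*Cdkn2c*) and p19INK4d (*Cdkn2d*). They were chosen by name, and all 8 were found among the 23183 gene symbols of the mRNA-seq files. The libraries came from sorted CD4+CD8+ double positive (DP) thymocytes, developing T cells that bear both coreceptors at once, of C57BL/6 mice aged 6 weeks. The 3 WT libraries were from *Nsrp1* f/f mice and the 3 NSrp70-cKO libraries from *Nsrp1* f/f CD4Cre mice, so that both genotypes carried floxed *Nsrp1* alleles and the cKO mice also carried a Cre transgene under *Cd4* control, which acts only once *Cd4* is expressed. Whether a library is a single mouse or a pool is not given in the sources used here.

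p53 is a transcription factor that is made continuously and destroyed continuously, because MDM2 marks it for the proteasome while MDM4 blocks its activity. When DNA is damaged, p53 escapes this control and switches on genes such as *Cdkn1a*, *Ccng1* and *Mdm2* itself, and DP thymocytes are well known for dying by this route after irradiation. CDK inhibitors are the brakes of the cell cycle, the Cip/Kip proteins p21 and p27 binding cyclin-CDK complexes broadly and the INK4 proteins p18 and p19 binding CDK4 and CDK6, and most DP thymocytes are resting cells that hold these brakes after an earlier burst of division.

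The upstream promoters of *Cdkn1a* and *Ccng1* are shown because both genes are textbook p53 targets and both rose in cKO. They were thus picked partly by their values. *Mdm2*, also a p53 target, did not rise (log2 fold change -0.23), and other p53 targets went both ways, as described below. The sequences are those of RefSeq on GRCm38.p6, 250 bases that end just before the start site, 5′ to 3′ on the gene's strand. They lie at chr17:29090729-29090978 on the plus strand for the upstream start site of *Cdkn1a*, and at chr11:40755287-40755536 on the minus strand for *Ccng1*. Capitals mark a match to the core of the p53 consensus, a palindrome of 10 bases, and in *Cdkn1a* the whole stretch from the first base of one match to the last base of another.
Cdkn1a: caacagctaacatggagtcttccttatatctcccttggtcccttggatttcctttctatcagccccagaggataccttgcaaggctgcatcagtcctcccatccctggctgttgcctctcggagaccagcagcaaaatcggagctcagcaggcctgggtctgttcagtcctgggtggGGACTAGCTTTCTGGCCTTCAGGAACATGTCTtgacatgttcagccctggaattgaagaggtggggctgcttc
Ccng1: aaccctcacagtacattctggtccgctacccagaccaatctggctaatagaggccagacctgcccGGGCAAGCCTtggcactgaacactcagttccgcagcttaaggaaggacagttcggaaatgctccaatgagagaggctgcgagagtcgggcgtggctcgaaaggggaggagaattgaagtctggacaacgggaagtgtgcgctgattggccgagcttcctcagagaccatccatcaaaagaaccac

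The pair of cores in *Cdkn1a*, within a spacer of at most 13 bases, runs from position -73 to -42, counted back from its upstream start site. The window of the other *Cdkn1a* start site, which begins at chr17:29093519, held no core. Over all 32851 mouse windows from 250 bases before to 50 after a start site, such a pair is in 24 (0.0731%) and at least 1 core in 8.36%. Single cores were also found in the promoters of *Mdm2*, *Cdkn2d* and *Trp53*, which are printed to show how they vary.
Mdm2: GAACTTGCCT
Cdkn2d: GGGCTTGCCT
Trp53: GGACTTGCCC
In all, 5 of the 8 genes had a core in the 11 windows listed for them, and *Mdm4*, *Cdkn1b* and *Cdkn2c* had none. A further search on both strands for the E2F motifs TTTCCCGC and TTTGGCGC, which are in 1.07% and 0.514% of all windows, found neither in those of the 8 genes. A match describes the letters only, and these promoters were not assayed for binding.

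Values are FPKM (fragments counted per transcript length and per mapped depth), which the authors computed per gene symbol and library. Mapped depth, estimated from the steps that 1 fragment makes in the values of single-transcript genes, was 20.7 to 20.9 M fragments (M, 10 to the power 6) in WT and 13.2, 20.7 and 17.3 M in cKO 1, 2 and 3. FPKM totals were 521296 to 531517 in WT and 701396 to 850548 in cKO. The targeted gene *Nsrp1* (as *Ccdc55* in the files) had an FPKM of 20.2, 20.7 and 21.1 in WT and of 17.7, 15.8 and 15.0 in cKO (adjusted p = 0.00675 from limma, or 0.184 from the WT mean taken as 1 sample), a gene-level value that does not resolve the floxed exons. *Xist* was at 69.8 to 72.0 in WT and 4.07 to 5.44 in cKO, and *Ddx3y* of chromosome Y was listed at 0 in WT and at 26.2 to 35.0 in cKO, so that sex and genotype cannot be told apart. The squared difference between a pair of libraries, relative to counting noise, was only 1.50 to 1.61 within WT but 27.1 to 62.1 within cKO, and nothing in the labels says that the WT libraries are separate mice. P-values were therefore also computed from the WT mean taken as 1 sample, and p-values with 3 WT samples measure only the spread between these libraries, which may be technical.

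In NSrp70-cKO DP thymocytes the mRNA of p53 itself stood at its WT level, except under scalings described below, while genes around it moved in opposite directions. *Mdm4* fell to 0.543 of its WT mean, *Ccng1* rose to 2.02 times and *Cdkn1a*, which was barely expressed and lost its call at an equal FPKM total, rose to 1.90 times. Both INK4 genes rose, *Cdkn2c* to 1.88 times and *Cdkn2d*, whose rise was lost under some scalings, to 1.43 times, and *Cdkn1b* was scattered on both sides of WT. In the limma test across the 10326 genes that reached an FPKM of 1 in 3 or more libraries, on log2(FPKM + 1), 5 of the 8 genes had an adjusted p under 0.05, 4 higher and 1 lower. This share lies near the background, since 65.5% of all tested genes passed the same test, 35.8% higher and 29.8% lower. In 6 of the 8 genes the 3 cKO values did not overlap with the 3 WT values, as was the case for 72.5% of all tested genes. Taking WT as 1 sample left 2 of the 8 genes called, *Ccng1* and *Cdkn2c*, against 15.9% of all genes.

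**Figure D1:**
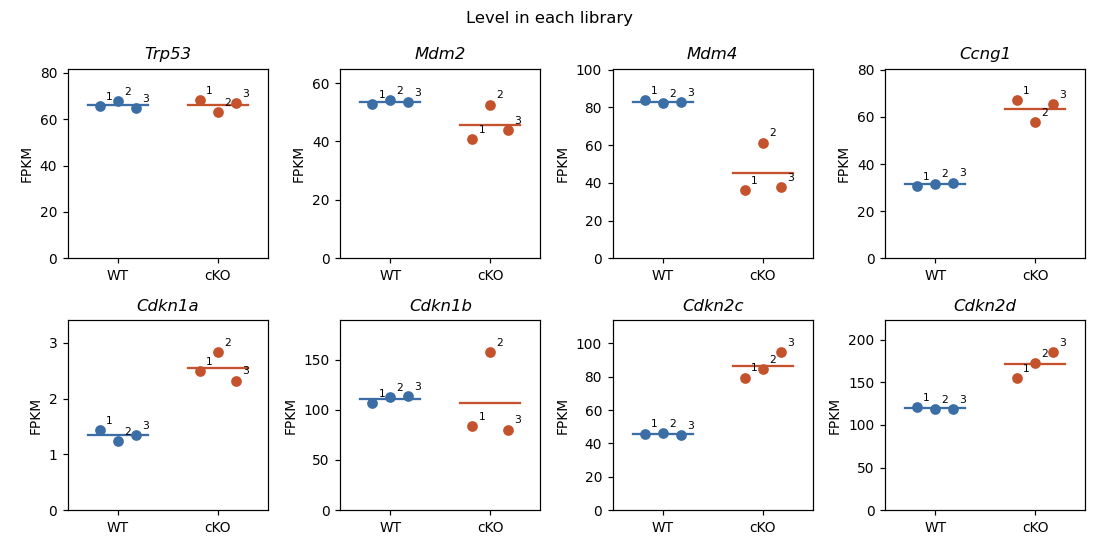
FPKM of each gene in every library, with 1 panel per gene and its own axis from 0. Points are libraries numbered by replicate (blue WT, orange cKO) and lines are group means. *Trp53* was level, *Mdm4* lay below WT and *Ccng1*, *Cdkn1a*, *Cdkn2c* and *Cdkn2d* above it in all 3 cKO libraries, and cKO 2 stood apart in *Mdm4* and *Cdkn1b*.

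*Trp53* (ENSMUSG00000059552.13; chromosome 11, 69580359 to 69591873 of GRCm38, plus strand) had an FPKM of 65.6, 67.9 and 65.0 in WT 1, 2 and 3 and of 68.2, 63.0 and 67.0 in cKO 1, 2 and 3. The genotypes overlapped fully. Its log2 fold change was -0.0032 with a 95% interval of -0.16 to 0.15 (adjusted p = 0.967 from limma). Among the 3 cKO libraries its standard deviation on the log2 scale was 0.068, smaller than the median of 0.16 over all tested genes. About 1502 to 2344 fragments per library stood behind these values, for which counting error is 2.07% to 2.58%.

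*Mdm2* (ENSMUSG00000020184.15; chromosome 10, 117688875 to 117710758, minus strand), the ubiquitin ligase that degrades p53 and is itself induced by it, had an FPKM of 52.8, 54.1 and 53.5 in WT and of 40.9, 52.6 and 43.8 in cKO. All cKO values lay below all WT values, but cKO 2 only just. The log2 fold change was -0.23 (standard error 0.094, 95% interval -0.45 to -0.0068), which did not pass the adjustment (adjusted p = 0.0659). Without cKO 2 it was -0.33 with an adjusted p of 0.00100.

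*Mdm4* (ENSMUSG00000054387.13; chromosome 1, 132959484 to 133030561, minus strand), which encodes the relative of MDM2 that holds p53 inactive, had an FPKM of 83.8, 82.4 and 82.6 in WT and of 36.3, 61.3 and 37.5 in cKO. It was lower in 3 of 3 cKO libraries, most in cKO 1 and 3. The log2 fold change was -0.91 (standard error 0.18, 95% interval -1.35 to -0.47, adjusted p = 0.00425 from limma), and the adjusted p was 0.0779 when WT counted as 1 sample. Without cKO 2 the log2 fold change of *Mdm4* was -1.14. FPKM sums over isoforms, and the annotation lists 14 transcripts of *Mdm4*, so these values hold nothing on the exon skipping for which this gene is known. A processed pseudogene overlaps *Mdm4* over 639 bases on the opposite strand, and the strand setting of the counting is not given in the sources used here.

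*Ccng1* (ENSMUSG00000020326.7; chromosome 11, 40748552 to 40755311, minus strand) encodes cyclin G1, a p53 target that brings a phosphatase to MDM2. Its FPKM was 30.7, 31.7 and 32.1 in WT and 67.1, 58.0 and 65.4 in cKO, with a wide gap between the genotypes. Expressed as a log2 fold change this was 0.98 (standard error 0.077, 95% interval 0.80 to 1.17, adjusted p = 0.000146 from limma), and the adjusted p was 0.0311 when WT counted as 1 sample. Corrected for GC content and length, the log2 fold change was 0.72.

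**Figure D2:**
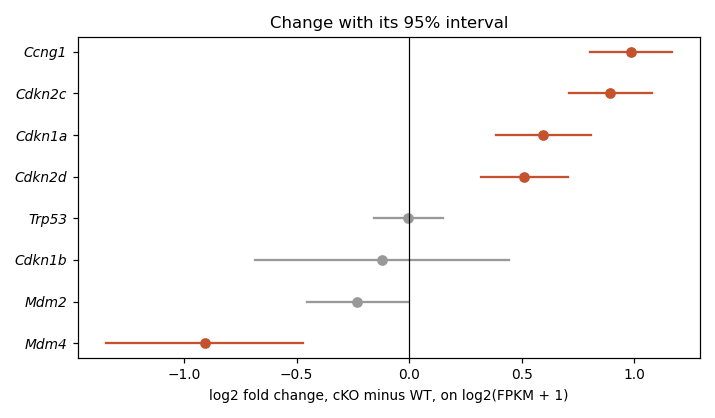
Log2 fold change (cKO minus WT, on log2(FPKM + 1)) of each gene with its 95% interval from limma. Orange points passed an adjusted p of 0.05 over all tested genes and grey points did not, and the intervals of *Trp53* (-0.16 to 0.15) and *Cdkn1b* (-0.69 to 0.44) span 0.

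*Cdkn1a* (ENSMUSG00000023067.14; chromosome 17, 29090976 to 29100727, plus strand), which encodes p21 and is the best known p53 target, was by far the lowest of the 8 genes. Its FPKM was 1.43, 1.25 and 1.35 in WT and 2.49, 2.84 and 2.33 in cKO, and all 3 cKO libraries were above all WT libraries. Only 48 to 56 estimated fragments per WT library and 62 to 110 per cKO library stood behind these values, a counting error of 13.3% to 14.4% and of 9.52% to 12.7%. The log2 fold change was 0.60 (standard error 0.089, adjusted p = 0.00118 from limma) on log2(FPKM + 1) and 0.87 with a pseudocount of 0.1, because the pseudocount of 1 damps the change of a low gene. When WT counted as 1 sample the adjusted p was 0.0696, and at an equal FPKM total it was 0.111. In level, *Cdkn1a* stood above 3.40% of the tested genes in WT and above 13.2% in cKO. The annotation places an unconfirmed transcript on the opposite strand over 1046 bases of the gene. For the p21 protein, the study reports a reduced level by western blot of cKO thymocytes, with no sorted subset named in the legend. That is the opposite direction to this mRNA of sorted DP thymocytes. The reason for that difference was not tested.

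*Cdkn1b* (ENSMUSG00000003031.14; chromosome 6, 134920401 to 134925513, plus strand), which encodes p27, the brake of resting T cells, had an FPKM of 106, 113 and 114 in WT and of 83.8, 157 and 80.2 in cKO. The genotypes overlapped because cKO 2 lay above all WT libraries while cKO 1 and 3 lay below them. The mean log2 fold change was -0.12 (95% interval -0.69 to 0.44, adjusted p = 0.675 from limma). Without cKO 2 it was -0.43 with an adjusted p of 0.000431. The log2 standard deviation among the cKO libraries was 0.53, larger than in 97.5% of tested genes, with 4817 to 14184 estimated fragments per cKO library behind the values. That of *Mdm4* was 0.41, larger than in 93.7%. The split of *Cdkn1b*, with cKO 2 above WT and the others below, was found in 403 of the 10326 genes (3.90%).

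*Cdkn2c* (ENSMUSG00000028551.14; chromosome 4, 109660876 to 109667189, minus strand), which encodes the CDK4 and CDK6 inhibitor p18INK4c, had an FPKM of 46.0, 46.3 and 45.2 in WT and of 79.5, 84.5 and 94.8 in cKO. All cKO libraries were well above all WT libraries. This gave a log2 fold change of 0.89 (standard error 0.079, 95% interval 0.71 to 1.08, adjusted p = 0.000196 from limma), and the adjusted p was 0.0352 when WT counted as 1 sample.

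*Cdkn2d* (ENSMUSG00000096472.2; chromosome 9, 21288410 to 21291407, minus strand), which encodes the related inhibitor p19INK4d, had an FPKM of 121, 118 and 119 in WT and of 155, 173 and 186 in cKO. The 3 cKO libraries again lay above WT. The log2 fold change was 0.51 (standard error 0.082, 95% interval 0.32 to 0.71, adjusted p = 0.00158 from limma), and the adjusted p was 0.111 when WT counted as 1 sample. The rise of *Cdkn2d* depended on the scaling, as described next.

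The larger FPKM totals of cKO make the choice of scaling matter. When all libraries were set to an equal FPKM total, the median log2 fold change over the tested genes went from 0.039 to -0.45 and the calls from 3693 higher and 3073 lower to 903 and 6182. *Cdkn2d* was then at -0.046 (adjusted p = 0.674), *Cdkn1a* at 0.24 (adjusted p = 0.111) and *Trp53* at -0.56 (adjusted p = 0.000527). All 8 genes shifted down. *Mdm4* (-1.46), *Mdm2* (-0.78), *Cdkn1b* (-0.68) and *Trp53* lay below that new median, while *Ccng1* (0.44), *Cdkn2c* (0.34), *Cdkn1a* and *Cdkn2d* lay above it. Quantile normalization left that median at 0.036, and under it *Cdkn2d* was at 0.12 (adjusted p = 0.187), *Trp53* at -0.24 (adjusted p = 0.00581) and *Mdm2* at -0.40 (adjusted p = 0.0150). *Mdm4* was lower and *Ccng1* and *Cdkn2c* were higher, each with an adjusted p under 0.05, under every scaling and correction tried with 3 WT samples. The level *Trp53* and the calls of *Cdkn2d* and *Cdkn1a* were therefore tied to the choice of scaling.

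**Figure D3:**
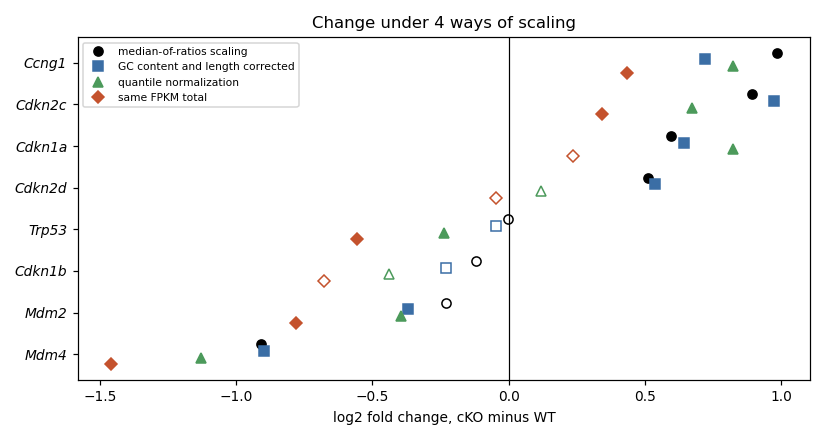
Log2 fold change (cKO minus WT) of the 8 genes under 4 ways of scaling. Filled symbols passed an adjusted p of 0.05 from limma and open symbols did not, and with libraries scaled to the same FPKM total *Cdkn2d* lay at -0.046 and *Trp53* at -0.56.

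The plain FPKM ratio of a pair of genes within 1 library does not depend on how that library was scaled. The FPKM ratio of *Mdm2* to *Mdm4* was 0.631, 0.657 and 0.647 in WT and 1.12, 0.859 and 1.17 in cKO. Thus *Mdm4* was the more abundant of the p53 inhibitors in all WT libraries and in cKO 2, and *Mdm2* in cKO 1 and 3. The ratio of *Cdkn1a* to *Cdkn1b* was 0.0134, 0.0111 and 0.0119 in WT and 0.0298, 0.0180 and 0.0290 in cKO. For *Cdkn2c* to *Cdkn2d* it was 0.379, 0.391 and 0.381 in WT and 0.512, 0.489 and 0.511 in cKO, the tightest of the ratios among the cKO libraries. These log2 ratios (of FPKM + 1) were higher in 3 of 3 cKO libraries, by 0.68, 0.72 and 0.38 in the order given, each with an exact two-sided permutation p of 0.10, the smallest that 3 libraries against 3 can give, and 0.133 after adjustment over the 4 ratios tested. Because of the added 1, the log2 ratio of the low *Cdkn1a* does depend on scale, and its difference was 0.997 with a pseudocount of 0.1. The ratio of *Trp53* to *Mdm2* overlapped between the genotypes (exact permutation p = 0.40), with cKO 2 just below the WT libraries.

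**Figure D4:**
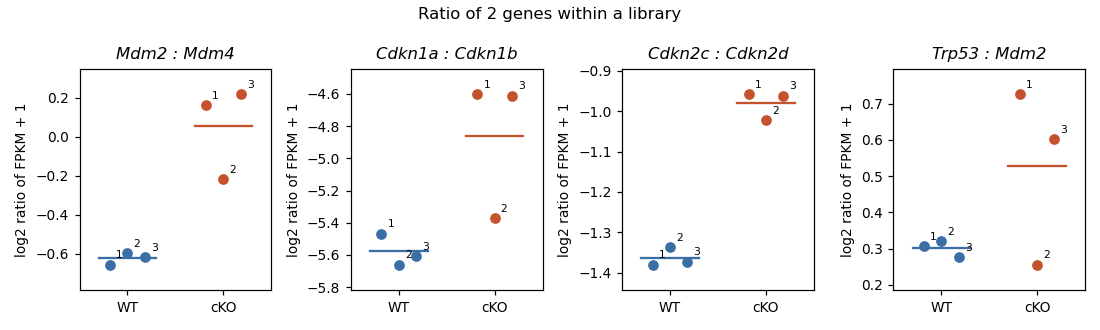
Log2 ratio of FPKM + 1 of gene pairs within each library, points numbered by replicate (blue WT, orange cKO) with group means as lines; each panel has its own axis, not starting at 0. The cKO libraries lay above WT in the ratios of *Mdm2* to *Mdm4*, *Cdkn1a* to *Cdkn1b* and *Cdkn2c* to *Cdkn2d*.

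FPKM is per length, so the levels of the genes can be ordered. In WT the order of mean FPKM was *Cdkn2d* (119), *Cdkn1b* (111), *Mdm4* (82.9), *Trp53* (66.2), *Mdm2* (53.5), *Cdkn2c* (45.8), *Ccng1* (31.5) and *Cdkn1a* (1.34), and no neighbours in this order overlapped. In cKO it was *Cdkn2d* (171 ± 15.1, SD, n = 3), *Cdkn1b* (107 ± 43.6), *Cdkn2c* (86.3 ± 7.80), *Trp53* (66.1 ± 2.72), *Ccng1* (63.5 ± 4.85), *Mdm2* (45.8 ± 6.12), *Mdm4* (45.0 ± 14.1) and *Cdkn1a* (2.55 ± 0.260). By these means *Mdm4* moved from place 3 to place 7 and *Cdkn2c* from 6 to 3. In cKO 1 and 3 *Mdm4* lay below *Mdm2* and *Ccng1*, but in cKO 2 *Mdm4* (61.3) lay above *Ccng1* (58.0) and *Mdm2* (52.6). The ranges of *Cdkn2d* and *Cdkn1b*, *Cdkn1b* and *Cdkn2c*, *Trp53* and *Ccng1*, *Mdm2* and *Mdm4*, and *Ccng1* and *Mdm4* overlapped in cKO.

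Genes that p53 switches on elsewhere did not move one way. Of 30 such targets, the 8 genes above left aside, 26 were tested, and 7 were higher, 7 lower and 12 not called, with a median log2 fold change of 0.0014 against 0.039 for all genes. Their share of calls, 53.8%, lay below that of all genes. The higher targets with the smallest adjusted p were *Rps27l*, which encodes a ribosomal protein relative (log2 fold change 1.04), *Phlda3*, an inhibitor of AKT (0.87), *Pmaip1*, which encodes the cell death protein NOXA (0.75), and *Trp53inp1* (0.53). *Phlda3* was at 2.03 in WT on average and 4.60 in cKO, and *Pmaip1* at 1.85 and 3.87. The lower ones were *Ddit4*, an inhibitor of mTORC1 (-0.96), *Sfn*, which encodes 14-3-3σ (-0.83), *Zmat3*, an RNA-binding protein (-0.69), and *Sesn2*, a stress protein (-0.61). *Sfn* had an FPKM of 16.0 to 17.4 in WT and of 8.63 to 9.38 in cKO. *Bbc3*, the cell death gene for PUMA, was lower as well (-0.60, adjusted p = 0.00364), whereas *Bax* had a log2 fold change of 0.026 (adjusted p = 0.835). When WT counted as 1 sample, 2 targets (*Sfn* and *Zmat3*) were called, and with libraries scaled to the same FPKM total 2 were higher and 15 lower.

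Of 25 genes whose products act on p53, 24 were tested, with 6 higher and 10 lower and a median of -0.084. Their 66.7% called lay near the 65.5% of all tested genes. Those higher included *Chek1*, a checkpoint kinase that is also made in dividing cells, at 6.48 to 6.60 in WT and 15.1 to 17.6 in cKO (log2 fold change 1.22), and *Prkdc*, the catalytic subunit of DNA-PK (0.35). *Rpl5*, *Rpl11* and *Rpl23*, whose proteins bind MDM2 when ribosome assembly is disturbed, had log2 fold changes of 0.78, 0.70 and 0.75 (adjusted p of 0.00388, 0.00762 and 0.00556), although reads of such genes are uncertain where processed pseudogenes could share them. The lower ones were led by *Ppp1r13b* (-0.94) and *Crebbp* (-0.99), a cofactor and an acetyltransferase of p53, with *Trim28* (-0.57) and the ubiquitin ligase gene *Huwe1* (-0.72). *Usp7*, the deubiquitinase of MDM2 and p53, had -0.36 (adjusted p = 0.0140), and *Atm* 0.13 (adjusted p = 0.114). With libraries scaled to the same FPKM total 1 was higher and 18 lower, and when WT counted as 1 sample 1 was higher and 2 lower.

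**Figure D5:**
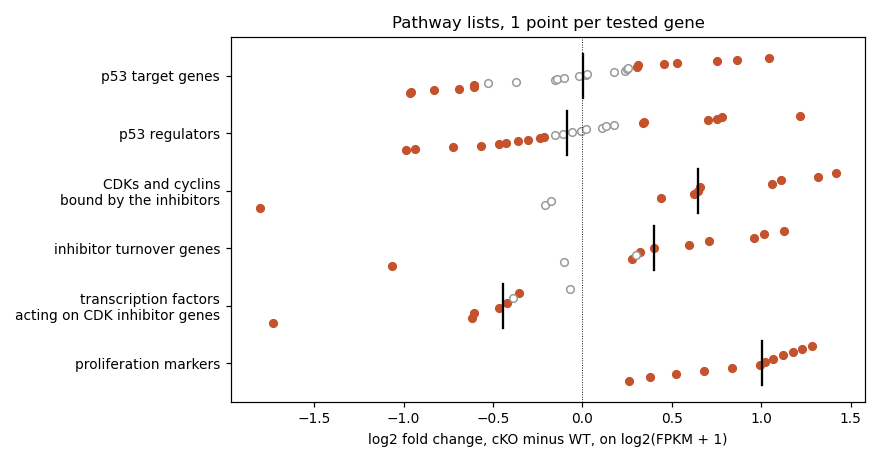
Log2 fold change (cKO minus WT, on log2(FPKM + 1)) of each tested gene in 6 lists. Filled orange points had an adjusted p under 0.05 from limma, open grey points did not, and black bars are list medians, which ran from -0.44 for the transcription factors to 1.01 for the proliferation markers.

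Among the other CDK inhibitor genes, *Cdkn2a* and *Cdkn2b* were at an FPKM of 0.0833 or less in every library and *Cdkn1c*, which encodes p57, was at 3.63 to 4.33 in WT and 2.45 to 4.47 in cKO. *Cdkn3*, a phosphatase gene that is not an inhibitor of this family and is expressed in dividing cells, rose from 13.8 to 16.1 in WT to 42.6 to 53.4 in cKO (log2 fold change 1.63, adjusted p = 0.000111). *Ccng2*, the relative of *Ccng1*, had a log2 fold change of 0.089 (adjusted p = 0.523). The p53 relatives *Trp63* and *Trp73* were listed at or near 0.

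Of the 12 CDK and cyclin genes whose products the inhibitors bind, 11 were tested, 8 were higher and 1 lower, with a median of 0.65, against 35.8% of all tested genes higher and 29.8% lower. Of the partners of the INK4 proteins, *Cdk4* rose from a mean of 96.7 to 153 (log2 fold change 0.66, adjusted p = 0.000448). *Cdk6* had means of 6.16 and 5.20 with overlapping genotypes (-0.21, adjusted p = 0.0939). Of the cyclin D genes, *Ccnd3*, the main one here, rose (0.62) and *Ccnd2* fell from 5.18 to 0.763 (-1.80). *Ccne2*, *Cdk1* and *Ccna2* had log2 fold changes of 1.42, 1.11 and 1.06. Scaled to the same FPKM total, 4 of these genes were higher and 3 lower.

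Of 11 genes for the turnover of p27 and p21, 8 were higher and 1 lower (median 0.40), against the same 35.8% and 29.8% of all genes, and 3 and 3 when libraries were scaled to the same FPKM total. *Skp2* and *Cks1b*, which recognise p27 in dividing cells, had log2 fold changes of 1.02 and 0.96, with *Skp2* at 6.94 to 7.12 in WT and 15.1 to 15.4 in cKO. *Dtl* and *Pcna*, which direct the destruction of p21 in S phase, had 0.71 and 1.13. *Rnf123*, a ligase gene for p27 in G1, fell (-1.06, adjusted p = 0.000276). Of 8 transcription factors known to act on CDK inhibitor genes 0 were higher and 6 lower (median -0.44), or 2 and 4 after correction for GC content and length. Of all tested genes 65.5% were called, 29.8% lower. Those lower included *Foxo1* (-0.61), *Foxo3* (-0.46) and *Myc* (-0.61).

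Markers of dividing cells and of cell types were compared as well. All 12 proliferation markers were higher in cKO (median log2 fold change 1.01), against 35.8% of all tested genes higher and 29.8% lower. Their summed FPKM was 942 to 943 in WT and 1671 to 1908 in cKO. With libraries scaled to the same FPKM total, 8 were higher and 1 lower, against 903 and 6182 of the 10326 tested genes. Of 8 markers of mature single positive cells, 6 were lower and 1 higher, against the same 29.8% and 35.8% (sum 282 to 285 in WT and 233 to 266 in cKO). In bulk libraries fewer cells of a type and less RNA per cell cannot be told apart, and the part of either shift in the changes of the 8 genes was not tested. The 10 DP markers summed to 5674 to 5757 in WT and 7492 to 9748 in cKO. Of them 7 were higher and 2 lower, against the same 35.8% and 29.8%. Under quantile normalization 1 was higher and 5 lower, against 3475 and 3041 of all tested genes. All 10 were detected in every library. Markers of the earlier double negative cells summed to 40.0 to 40.3 in WT and 28.4 to 39.5 in cKO, mostly from *Ptcra*. Of 4 tested, 0 were higher and 2 lower, *Il7r* (log2 fold change -1.67) and *Il2ra* (-0.45), against 35.8% and 29.8% of all tested genes. Myeloid markers summed to 6.13 to 8.01 in WT and 5.06 to 7.33 in cKO, stromal markers to 3.59 to 4.12 and 1.95 to 3.72 with *Krt5* at 0 throughout, and B cell markers to 22.7 to 24.1 and 26.7 to 39.4, nearly all from *Cd79b*. Erythroid markers summed to 0.599 to 1.07 in WT and 3.50 to 10.9 in cKO, nearly all from *Hba-a1*, and their part was not tested.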

How the data were processed

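Poly(A)-enriched, directional libraries were sequenced as paired-end reads. The deposited FPKM values, 1 per gene symbol and library, were computed by the authors with Cufflinks from alignments to mm10 (Tophat) of reads trimmed by fastx trimmer. Strand setting, annotation and the version of each of these programs are not given in the sources used here. The DESeq2 test that the authors ran on counts could not be repeated on FPKM. At an adjusted p under 0.05 the study reports far fewer genes from that test than the 6766 called here, and most of its genes were higher. The shares of all tested genes given here are thus those of the limma fit only.

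Symbols were matched to GENCODE mouse release 21 (GRCm38), 22110 directly and 664 of 23183 through RefSeq synonyms. Depth was estimated at 2614 single-transcript genes with an assumed fragment length of 200. Values were divided by median-of-ratios size factors, and log2(FPKM + 1) of 10326 genes was modelled on genotype (limma 3.58.1, R 4.3.3, trend, Benjamini-Hochberg at 0.05). The fit was tried on simulated data that gave each gene the same spread in both genotypes. In the real libraries the median log2 standard deviation was 0.044 in WT and 0.16 in cKO, so that trial does not cover unequal spread. Ratios were tested by exact permutation in Python 3.11.15 with scipy 1.17.1. Groups and replicate numbers came from the labels.

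The 8 genes, the lists and the alternatives were chosen with earlier results of these data known. Named list genes are, for targets and regulators, the 4 leading genes by adjusted p in either direction, any gene of the shorter lists, the targeted gene, *Xist* and *Ddx3y*, and the 2 genes most alike to each called gene. *Bbc3*, *Bax*, *Usp7*, *Atm* and *Rpl11* were added after their values were seen. The fit with the replicate number as a block was an alternative, since same-numbered WT and cKO libraries deviated from their group means with correlations of -0.022, 0.038 and 0.031, which gives no sign of pairing. Other alternatives were pseudocount, filter, size factor, trend, quantile normalization, the same FPKM total, GC content and length (splines with 5 degrees of freedom), WT counted as 1 sample and each library left out.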

Additional observations from a re-analysis of the deposited data

How the results depend on the processing

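When WT counted as 1 sample, 1645 of all genes, 2 of the 8 genes, 2 p53 targets and 3 p53 regulators were called, in place of 6766, 5, 14 and 16; the direction of each gene is fixed by construction in that setting, which has fewer samples. In the other 14 alternatives each of these counts stayed within 1.5 times its value, but such totals do not show direction. At the same FPKM total the 8 genes went from 4 higher and 1 lower to 2 higher and 3 lower. The p53 regulators went from 6 higher and 10 lower to 1 higher and 18 lower. *Cdkn2d* turned to -0.046 with libraries scaled to the same FPKM total. Leaving out each library in turn, *Trp53* ranged from -0.030 to 0.035 and *Cdkn1b* from -0.43 to 0.049 in log2 fold change, neither with a stable sign. Leaving out cKO 2 gave 7 of the 8 genes called, adding *Mdm2* and *Cdkn1b* as lower, and each other library left out gave 5. Calls over all genes also rose without cKO 2, to 7667 from 6766. The correction for GC content and length called *Mdm2* lower as well (-0.37, adjusted p = 0.00724). *Ccng1* and *Cdkn2c* were called higher in all 15 alternatives, with log2 fold changes of 0.44 to 1.05 and 0.34 to 0.97, and *Mdm4* lower in all but the WT average, with -1.46 to -0.78. With the replicate block 5 of the 8 genes and 15 targets were called, and no call among the 8 changed. The ratios kept their direction in all 9 alternatives each, and none could reach a p of 0.05. The cause of these changes was not tested. Fragment counts limit *Cdkn1a* most, and they rest on mapped depth estimated from the values; the raw read number that the study states is another quantity and was not used.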

Other observations

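Apart from the genes described above, the most similar profiles over the 6 libraries, by Pearson's r of log2(FPKM + 1), which mostly follows the genotype they share, belonged for *Cdkn2c* to *Cwc15*, a splicing factor gene, and *Plk4*, the kinase gene of centriole duplication (r of 0.9997 and 0.9995). *Plk4* had an FPKM of 12.2, 12.4 and 12.4 in WT and of 22.2, 23.6 and 26.7 in cKO. For *Ccng1* they belonged to *Mbnl1*, a splicing regulator gene, and *Ddx52*, and for *Mdm4* to *Lime1*, an adaptor gene of T cell receptor signalling, and *Dtx3*. *Lime1* was at 30.1, 29.6 and 30.3 in WT and 11.6, 22.1 and 12.2 in cKO, with cKO 2 between the other cKO libraries and WT as for *Mdm4*. For *Cdkn1a* they belonged to *Ccdc130* and *Cep162*, and for *Cdkn2d* to *C920025E04Rik* and *Mrpl34*.

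The cKO libraries did not stand at 1 distance from WT. Of the 6766 called genes, cKO 2 was nearest to the WT mean in 58.1%, cKO 1 in 30.6% and cKO 3 in 11.2%, and of the called genes of the p53 and CDK inhibitor group it was nearest for *Mdm4* and *Ccng1*, cKO 1 for *Cdkn2c* and *Cdkn2d*, and cKO 3 for *Cdkn1a*. The split of *Cdkn1b*, cKO 2 above and the others below WT, was shared by the p53 targets *Aen*, *Ddb2*, *Gadd45a* and *Sesn1*, by *Sirt1* and *Cul4a*, and by *Cdk2*, the kinase that p27 inhibits. *Cdk2* ranged from 38.4 to 72.9 in cKO against 57.4 to 58.2 in WT, and *Gadd45a* from 16.6 to 33.7 against 30.7 to 31.6. These genes were picked out after their values were seen, and the split was not tested.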
